A study of Ambystoma mexicanum with 17 samples.

Results

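HAND2, TBX2 and TBX3 are transcription factor genes grouped here as regulators of the posterior limb. Their RNA was followed across regenerating and uninjured axolotl forelimb tissue. They were taken by name, with earlier results of these data known, and are 3 of the 122775 genes counted. All 3 were among the 19398 genes with enough reads to be tested. HAND2 encodes a basic helix-loop-helix factor. In mouse and chick limb buds it acts upstream of SHH, the hedgehog ligand of the posterior margin, and it and GLI3 restrict each other's territory. TBX2 and TBX3 encode closely related T-box factors that act mainly as repressors. In the limb buds of those species both are transcribed along the margins, and TBX3 lies downstream of HAND2 in the posterior mouse bud.

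The tissue came from white (d/d) axolotls (Ambystoma mexicanum), a genotype shared by all groups. Blastemas, the outgrowths of proliferating cells from which a limb can form, were induced on the forelimb by deviating a nerve to a wound, and were taken with their wound epithelium 10 days after injury. Uninjured forelimb tissue gave 3 libraries and anterior blastemas 5. Posterior blastemas gave 4 libraries without treatment and 5 after exposure to 25 uM of U0126, which inhibits the kinases that activate ERK. Both Holtfreter's solution and DMSO are mentioned with the treatment, so the vehicle given to untreated posterior blastemas is unclear. Nothing states that replicates are separate animals, so p-values measure the spread between libraries, which may be technical. The names of the 3 uninjured libraries share codes with 3 anterior ones, and whether these mark the same animals is not stated.

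Libraries held 34181446 to 53856865 reads counted in genes. TBX5, the forelimb T-box gene, was detected in every library at 2.34 to 35.4 CPM (counts per 1000000 reads of the TMM-scaled library). In 2 libraries, those labelled replicate 1 of the uninjured and replicate 5 of the inhibitor group, values stood apart from their groups, as the matrix gene TNC, picked with its values known, shows. TNC was at 1329 CPM in the former and at 71.6 and 78.4 CPM in the other uninjured libraries. It was at 102 CPM in the latter and at 444 to 1135 CPM in the other inhibitor libraries. The whole tissue was extracted, so fewer cells of a type and less RNA per cell cannot be told apart for any gene below.

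HAND2 was high in the posterior blastemas and low elsewhere. The 4 posterior libraries were at 30.7, 21.6, 17.4 and 7.15 CPM, in the order of their replicate labels. The 5 anterior libraries were at 2.06, 4.15, 0.931, 1.97 and 1.50 CPM. Every posterior library lay above every anterior one, and posterior replicate 4 was the lowest of its group. The 5 inhibitor libraries were at 0.843, 3.08, 1.87, 12.4 and 0.0771 CPM, and the 3 uninjured libraries at 4.91, 0.643 and 1.28 CPM. Inhibitor replicate 4 thus lay within the posterior range, while replicate 5 had only 3 HAND2 reads.

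TBX3 followed a similar order of groups with a narrower spread. The posterior libraries were at 58.1, 31.9, 25.0 and 16.6 CPM and the anterior ones at 9.11, 11.7, 9.29, 11.3 and 7.99 CPM. The inhibitor libraries were at 14.6, 11.5, 6.07, 14.0 and 8.64 CPM, and the uninjured ones at 11.7, 6.20 and 10.4 CPM. The posterior libraries lay above all 13 others, which together spanned only 6.07 to 14.6 CPM.

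TBX2 set the posterior blastemas apart less clearly. The posterior libraries were at 12.2, 6.78, 5.52 and 4.69 CPM and the anterior ones at 4.58, 6.35, 2.34, 4.70 and 5.01 CPM. The inhibitor libraries were at 1.55, 3.41, 1.45, 4.69 and 0.900 CPM, and the uninjured ones at 3.61, 1.09 and 1.69 CPM. The posterior and anterior ranges overlapped, and 4 of the 5 inhibitor libraries lay below every posterior library.

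Among the posterior libraries, replicate 1 was the highest and replicate 4 the lowest for all 3 genes. In the uninjured group the library that stood apart, replicate 1, was the highest for all 3. By group, HAND2 averaged 19.2 ± 9.75 CPM (SD, n = 4) in posterior blastemas, followed by 3.65 ± 5.02 CPM (SD, n = 5) with the inhibitor. Uninjured tissue, at 2.28 ± 2.30 CPM (SD, n = 3), and anterior blastemas, at 2.12 ± 1.22 CPM (SD, n = 5), came last. TBX3 had the posterior group first at 32.9 ± 17.9 CPM (SD, n = 4), then inhibitor, anterior and uninjured groups at 11.0 ± 3.62, 9.88 ± 1.58 and 9.46 ± 2.89 CPM (SD, n = 5, 5 and 3). The last 3 groups of HAND2 and of TBX3 did not differ beyond their spread. TBX2 had a different order, with the anterior group second: 7.29 ± 3.37 CPM in posterior, 4.60 ± 1.45 in anterior, 2.40 ± 1.59 in inhibitor and 2.13 ± 1.32 in uninjured tissue (SD, n = 4, 5, 5 and 3). No pair of neighbours in the TBX2 order differed beyond its spread.

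**Figure D1:**
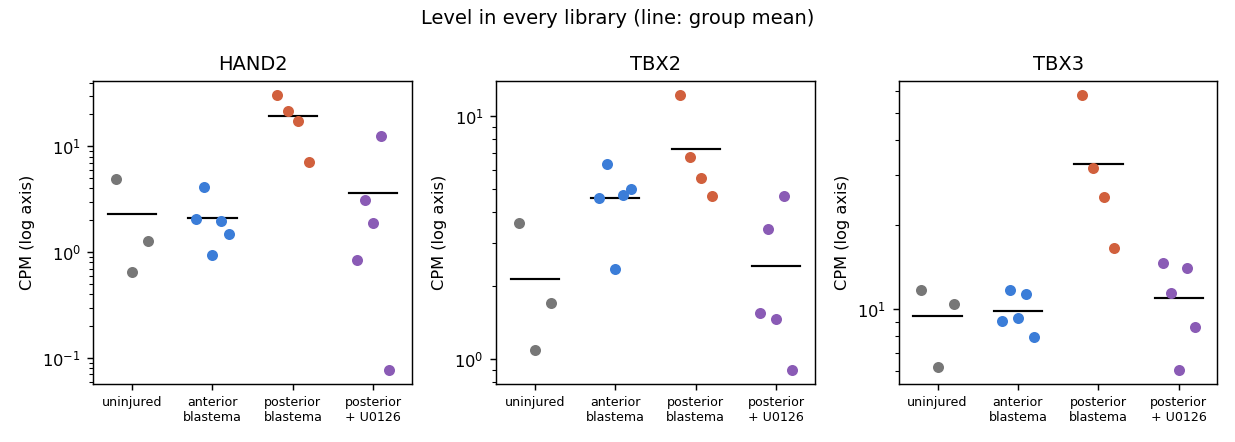
CPM of HAND2, TBX2 and TBX3 on a log axis in each of the 17 libraries, by group; each point is 1 library and the bar is the group mean. The posterior HAND2 and TBX3 points lie above all anterior points, and 1 inhibitor library reaches 12.4 CPM of HAND2.

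Whether the genes mark the posterior side of the regenerate is the question of the first comparison, posterior against anterior blastemas. HAND2 and TBX3 were each higher in all 4 posterior libraries than in any anterior library, while TBX2 was not. Among all genes tested, 2.78% were higher without overlap. HAND2 had a log2 fold change of 3.17 ± 0.94 (SE, 95% interval 1.17 to 5.18) and an adjusted p of 0.405 by edgeR's quasi-likelihood test with Benjamini-Hochberg adjustment over all genes. TBX3 had one of 1.74 ± 0.33 (SE, 95% interval 1.04 to 2.43), adjusted p = 0.200. TBX2 had one of 0.67 ± 0.47 (SE, 95% interval −0.34 to 1.67), adjusted p = 0.707. None of the 3 passed the threshold of 0.05, which 0.00516% of all genes passed, a single gene. Without adjustment, HAND2 and TBX3 were under 0.05, as were 9.56% of all genes. DESeq2, a second count model, called HAND2 (adjusted p = 0.0379) and TBX3 (adjusted p = 0.000365) but not TBX2 (adjusted p = 0.662); it called 132 genes in all against 1 by edgeR.

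The other genes of the posterior list gave no edgeR call in this comparison. Of its 22 tested genes besides HAND2, TBX2 and TBX3, 16 were higher and 6 lower in posterior blastemas, with a median log2 fold change of 0.55 against −7.34e-05 over all genes. Without overlap, 8 of them were higher and 1 lower, against 2.78% and 2.07% of all genes. The list, like the 3 factors, was chosen with earlier results of these data known, so these shares are a description only. The genes named next from this list were all higher. PTCH1, which encodes a hedgehog receptor and is itself a transcriptional target of hedgehog signalling, had a log2 fold change of 3.22 ± 0.63 (SE, adjusted p = 0.261 by edgeR). GREM1, a secreted BMP antagonist, was at 16.4 ± 6.99 CPM (SD, n = 4) in posterior and 5.41 ± 2.80 CPM (SD, n = 5) in anterior blastemas. HOXD13, a 5′ HoxD gene of the distal and posterior limb, was at 9.19 ± 5.76 CPM against 1.13 ± 0.475 CPM (SD, n = 4 and 5). SHH itself had 342, 76, 137 and 5 reads in the posterior libraries, and the library with 5 reads, replicate 4, was also the lowest for the 3 factors. Of the anterior list, 5 of 14 tested genes were higher and 9 lower in posterior blastemas, with a median of −0.36. Without overlap, 2 of these were higher and 5 lower, and both genes named next were on the lower side. The LIM homeobox gene LHX9 was lower, with a log2 fold change of −6.31 ± 0.87 (SE, adjusted p = 0.049997 by edgeR, lost in 14 of the 17 fits that left out a single library). GLI3, the hedgehog-regulated repressor that opposes HAND2 in mouse, was at 22.9 ± 6.47 CPM in posterior and 31.6 ± 10.8 CPM in anterior blastemas (SD, n = 4 and 5), and the ranges overlapped.

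Marker levels of other cell types moved with the sides as well, without an edgeR call in the lists given here. Skeletal muscle markers summed to 1458 to 12529 CPM over 13 genes in posterior and 1.44 to 2849 CPM in anterior blastemas, and all 13 were higher. Smooth muscle and heart markers summed to 664 to 2288 CPM against 96.3 to 1042 CPM, with 6 of 7 tested genes higher. Over all libraries this sum and that of skeletal muscle were both lowest in anterior replicate 1 and highest in uninjured replicate 3. They may therefore not be independent. Epidermis markers summed to 3133 to 4265 CPM against 3809 to 5356 CPM, with 9 of 11 lower. The 19 detected mesenchyme markers summed to 22549 to 31818 CPM in posterior and 14585 to 25646 CPM in anterior blastemas. Markers of sympathetic neurons, a cell type in which HAND2 is also transcribed, summed to 0.234 to 0.490 CPM against 0.221 to 0.362 CPM, and over all libraries to 0.0632 to 1.45 CPM, with PHOX2A at 0 in every library. The part of these markers in the differences above was not tested.

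The second comparison asks what ERK pathway inhibition changed in posterior blastemas. TBX3 fell, and it was lower in all 5 inhibitor libraries than in any untreated posterior library. Its log2 fold change was −1.59 ± 0.33 (SE, 95% interval −2.28 to −0.89), adjusted p = 0.0157 by edgeR. TBX2 had a fold change of nearly the same size, −1.60 ± 0.48 (SE, 95% interval −2.62 to −0.58), with an adjusted p of 0.0519, just short of the threshold. HAND2 had one of −2.39 ± 0.92 (SE, 95% interval −4.35 to −0.44), adjusted p = 0.116, with inhibitor replicate 4 inside the posterior range. So 1 of 3 was called lower, against 3.99% of all genes, and 1 of 3 was lower without overlap, against 6.02%. DESeq2 called all 3, with adjusted p-values of 0.0356 for HAND2, 0.0100 for TBX2 and 0.000181 for TBX3; it called 2903 genes in all against 1576 by edgeR.

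These calls depended on which library was left out. TBX3 kept its call in 16 of 17 such fits and lost it without posterior replicate 1, the highest for all 3 genes. Its log2 fold change was then −1.16, with an adjusted p of 0.0630 by edgeR, in a fit that called 127 genes in all. Without inhibitor replicate 4, both HAND2 (−3.70, adjusted p = 0.0158) and TBX2 (−1.99, adjusted p = 0.0167) passed. That fit called 2381 genes in all, 1306 of them lower, against 1576 called in the main fit. Without both libraries that stood apart, TBX3 (adjusted p = 0.0175) and TBX2 (adjusted p = 0.0472) passed and HAND2 (adjusted p = 0.0777) did not. There, 2575 genes were called in all.

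**Figure D2:**
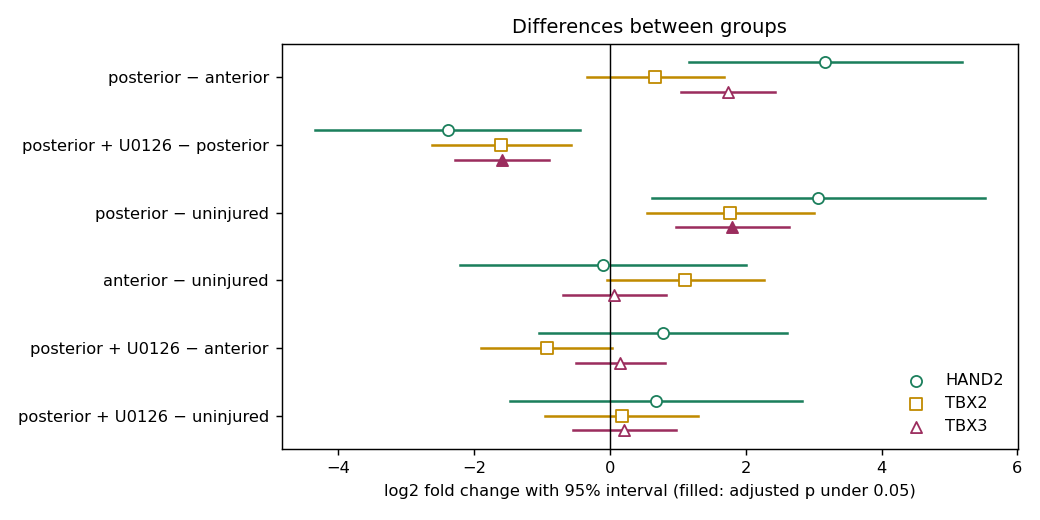
Log2 fold changes of HAND2, TBX2 and TBX3 in the 6 group comparisons by edgeR, with 95% intervals as bars; filled points have an adjusted p under 0.05 over all genes. TBX3 is filled in the inhibitor against posterior and the posterior against uninjured comparisons, at −1.59 and 1.80.

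Marker genes of several cell types moved with the inhibitor as well. The posterior list and the mesenchyme list were mostly lower together: 20 of 22 and 16 of 18 tested genes, with medians of −1.60 and −1.26 against −0.00222 over all genes. In the posterior list, PTCH1 fell by 2.21 ± 0.61 on the log2 scale (SE, adjusted p = 0.0388 by edgeR), a call lost in 8 of the 17 fits that left out a single library. In the mesenchyme list, 5 of 18 genes fell, against 3.99% of all genes: the homeobox gene PRRX2, the receptor genes PDGFRA and PDGFRB, the collagen gene COL5A2, and FSTL1, which encodes a secreted glycoprotein. The summed mesenchyme level was 22549 to 31818 CPM in posterior libraries and 6571 to 17780 CPM in inhibitor libraries, without overlap. Of 11 tested epidermis markers, 8 were higher. CDH1, GRHL1, GRHL2 and PKP3 rose, against 4.13% of all genes called higher, while KRT8 fell. Summed epidermis markers were at 3826 to 5066 CPM with the inhibitor and 3133 to 4265 CPM without. Cartilage markers summed to 215 to 498 CPM against 610 to 867 CPM, without overlap. Of the 10 tested, 7 were lower and 3 higher, with a median of −0.33, and ACAN and COL11A1, genes of cartilage matrix, fell. Macrophage markers summed to 436 to 845 CPM against 816 to 1679 CPM, and the complement genes C1QA, C1QB and C1QC fell among 10 tested. Of 7 tested smooth muscle and heart markers, 6 were lower and ACTA2 fell, and all 13 of skeletal muscle were lower without a call. Of 17 tested ERK targets, 15 were lower, with a median of −0.81, and PHLDA1 fell. That is 1 of 17 called, near the 3.99% of all genes called lower. The same 3.99% is the share to set beside the cartilage, macrophage and smooth muscle calls. Of the marker and ERK target genes named here as fallen or risen, C1QB and C1QC alone kept the call without posterior replicate 1; PRRX2 lost it in 5 of the 17 fits, and PDGFRB and KRT8 in 11. The part of the cartilage, macrophage, muscle and epidermis markers in the differences of the 3 factors was not tested.

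To set each factor against the mesenchyme markers of the same library, its log2(CPM + 0.5) was taken minus the mean over the 18 tested mesenchyme genes. On this scale TBX3 averaged −2.94 ± 0.59 in posterior blastemas (SD, n = 4) and −3.16 ± 0.58 with the inhibitor (SD, n = 5), a difference of −0.22 (two-sided exact permutation p = 0.492, adjusted p = 0.709 over 36 such tests). TBX2 differed by −0.26 (exact permutation p = 0.333, adjusted p = 0.522). HAND2 differed by more, −5.33 ± 1.14 with the inhibitor against −3.73 ± 0.76 without (SD, n = 5 and 4), a difference of −1.60 (exact permutation p = 0.0317, adjusted p = 0.117). Thus the relative TBX2 and TBX3 differences were within the spread of the libraries, and the HAND2 difference did not pass after adjustment. Of the 18 mesenchyme genes of the scale, 16 were themselves lower with the inhibitor, so a fall shared with them does not show on it. The part of mesenchyme cell number in such a fall was not tested. At these group sizes the smallest possible p was 0.0159, so 1 test alone could not pass the adjustment over 36.

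Between posterior and anterior blastemas the same scale gave another picture. HAND2 was at −3.73 ± 0.76 against −6.42 ± 0.25 (SD, n = 4 and 5), a difference of 2.69, and TBX3 at −2.94 ± 0.59 against −4.33 ± 0.28, a difference of 1.39. Neither overlapped between groups, and both reached an exact permutation p of 0.0159, the smallest this design can give (adjusted p = 0.114). TBX2 differed by 0.42 (exact permutation p = 0.111, adjusted p = 0.206) with overlap. Inhibitor libraries lay above anterior ones in TBX3 on this scale, by 1.17 without overlap (exact permutation p = 0.00794, the smallest possible, adjusted p = 0.114). Their absolute TBX3 levels had not differed beyond their spread, with a log2 fold change of 0.15 ± 0.31 (SE). All 18 mesenchyme genes of the scale were lower in inhibitor than in anterior libraries, with a median log2 fold change of −1.04 and no call. The 95% interval of that TBX3 fold change, −0.50 to 0.80, spanned both directions. The part of TBX3 and of the mesenchyme genes in the relative difference was not tested.

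**Figure D3:**
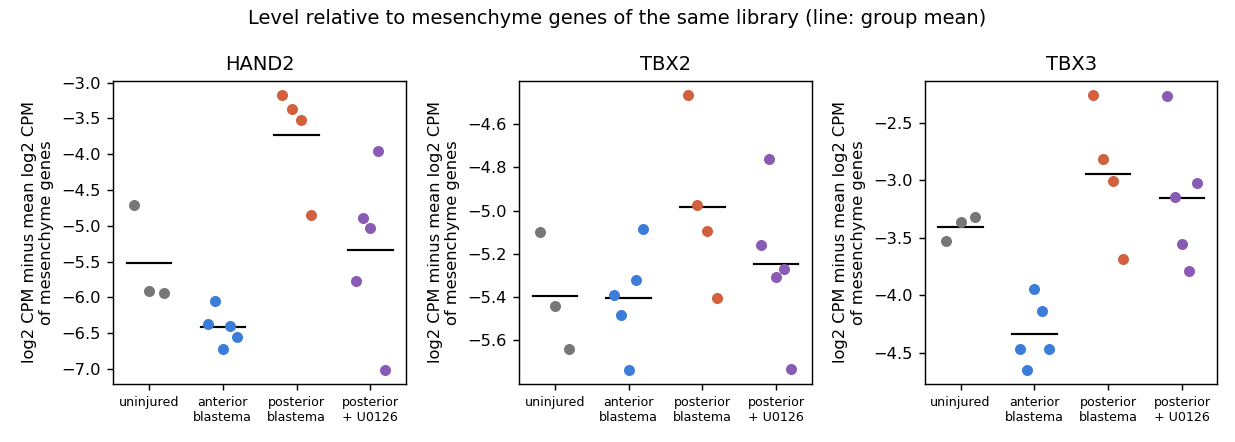
Log2(CPM + 0.5) of HAND2, TBX2 and TBX3 minus the mean of the mesenchyme genes in the same library, by group; points are libraries and bars are group means. Posterior TBX3 points overlap the inhibitor points, and posterior HAND2 and TBX3 points lie above all anterior points.

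Log2 ratios of 2 factors in the same library set their shifts against each other. The HAND2 to TBX2 log2 ratio was 1.26 ± 0.48 in posterior and −1.01 ± 0.32 in anterior blastemas (SD, n = 4 and 5), a difference of 2.27 without overlap (exact permutation p = 0.0159, adjusted p = 0.114). The HAND2 to TBX3 ratio differed by 1.30, also without overlap (exact permutation p = 0.0159, adjusted p = 0.114). The TBX2 to TBX3 ratio differed by −0.97 with overlap (exact permutation p = 0.0317, adjusted p = 0.117). With the inhibitor, the TBX2 to TBX3 ratio was −2.09 ± 0.66 against −2.04 ± 0.22 (SD, n = 5 and 4), a difference of −0.05 (exact permutation p = 0.873, adjusted p = 0.992). The HAND2 to TBX2 ratio differed by −1.34 with overlap (exact permutation p = 0.0476, adjusted p = 0.143). The HAND2 to TBX3 ratio differed by −1.39, also with overlap (exact permutation p = 0.143, adjusted p = 0.245). None of the 36 ratio tests passed after adjustment. The smallest possible p ran from 0.00794 to 0.0571 by comparison, so 1 test alone could not pass the adjustment over 36. That none passed therefore does not show that the ratios were alike.

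Against uninjured tissue, all 3 factors were higher in every posterior library, and none was called in anterior blastemas. TBX3 rose by 1.80 ± 0.39 on the log2 scale in posterior blastemas (SE, 95% interval 0.97 to 2.63), adjusted p = 0.0345 by edgeR. TBX2 had a log2 fold change of 1.77 ± 0.58 (SE, adjusted p = 0.0947 by edgeR) and HAND2 one of 3.07 ± 1.15 (SE, adjusted p = 0.138 by edgeR). So 1 of 3 was called higher, against 0.866% of all genes, and 3 of 3 were higher without overlap, against 8.94%. Of 18 tested mesenchyme genes, 16 were higher too, 10 of them without overlap, and none was called. Relative to the mesenchyme genes, HAND2 differed by 1.79, TBX2 by 0.41 and TBX3 by 0.46, all with overlap. Exact permutation p was 0.114, 0.114 and 0.286 (adjusted p = 0.206, 0.206 and 0.468), and the smallest possible was 0.0571. The TBX3 call was lost without posterior replicate 1, 2 or 3 (adjusted p = 0.103, 0.0864 and 0.0537) and without uninjured replicate 2 or 3 (0.133 and 0.0754). Without both libraries that stood apart all 3 passed, with log2 fold changes of 4.33 for HAND2, 2.40 for TBX2 and 1.99 for TBX3. That fit called 3108 of 19779 genes, 1850 of them higher, against 408 called in the main fit. Uninjured replicate 1, left out there, was the highest uninjured library for all 3.

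In anterior blastemas against uninjured tissue, where 0.206% of all genes were called, none of the 3 was. Those 40 genes became 3675 without uninjured replicate 1, 4492 without both libraries that stood apart, and 0 without uninjured replicate 2 or 3 or anterior replicate 2 or 5. HAND2 had a log2 fold change of −0.10 ± 0.99 (SE, 95% interval −2.22 to 2.01, adjusted p = 0.964 by edgeR) and TBX3 one of 0.06 ± 0.36 (SE, 95% interval −0.69 to 0.82, adjusted p = 0.936 by edgeR). The HAND2 value was 1.15 without both libraries that stood apart. TBX2 had the highest value, 1.11 ± 0.54 (SE, adjusted p = 0.249 by edgeR), with 4 of 5 anterior libraries above all uninjured ones, and 1.73 (adjusted p = 0.0398 by edgeR) without those 2 libraries. Relative to the mesenchyme genes, HAND2 and TBX3 were lower in every anterior library, by 0.90 and 0.93. Both had an exact permutation p of 0.0357, the smallest possible (adjusted p = 0.117). The relative TBX2 difference was −0.01 (exact permutation p = 0.964, adjusted p = 0.992). Between inhibitor and anterior libraries, where 1.18% of all genes were called, log2 fold changes were 0.78 ± 0.86 for HAND2, −0.94 ± 0.45 for TBX2 and 0.15 ± 0.31 for TBX3 (SE, adjusted p = 0.705, 0.311 and 0.864 by edgeR). Between inhibitor and uninjured libraries they were 0.68 ± 1.01, 0.17 ± 0.53 and 0.21 ± 0.36 (SE, adjusted p = 0.799, 0.913 and 0.821 by edgeR), where edgeR called 0 genes, DESeq2 called 32 and 1888 had an unadjusted p under 0.05. EdgeR called 1714 genes there without uninjured replicate 1 and 4344 without both libraries that stood apart, and none of the 3 was called in either fit. By edgeR on absolute levels, none of the 3 genes was under 0.05 without adjustment in these 3 comparisons, nor was any called by DESeq2. The comparisons share libraries with one another.

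Of the T-box family, 8 genes besides TBX2 and TBX3 were tested, and none was called between posterior and anterior blastemas (5 higher, 3 lower, median log2 fold change 0.30). TBX4, known for its role in the hindlimb, had few reads but did not overlap. It was at 1.76, 1.25, 0.935 and 1.85 CPM in posterior libraries and at 0 to 0.290 CPM in anterior ones, a log2 fold change of 3.93 ± 1.24 (SE, adjusted p = 0.408 by edgeR). In the reference gene table TBX4 is the neighbour of TBX2, and TBX5 the neighbour of TBX3. TBX5 was similar on both sides, at 23.3 ± 8.76 CPM in posterior and 17.7 ± 4.96 CPM in anterior blastemas (SD, n = 4 and 5). With the inhibitor 6 of the 8 were lower, with a median of −1.31, and TBX5 fell by 1.83 ± 0.50 on the log2 scale (SE, adjusted p = 0.0383 by edgeR), a call lost in 7 of those 17 fits. TBX15, a T-box gene of mesenchyme, was at 10.6 ± 6.28 CPM with the inhibitor and 29.3 ± 4.69 CPM without (SD, n = 5 and 4; adjusted p = 0.0889 by edgeR). TBX1 and MGA, the latter a MAX-binding protein with a T-box, had log2 fold changes of 0.13 and −0.08.

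**Figure D4:**
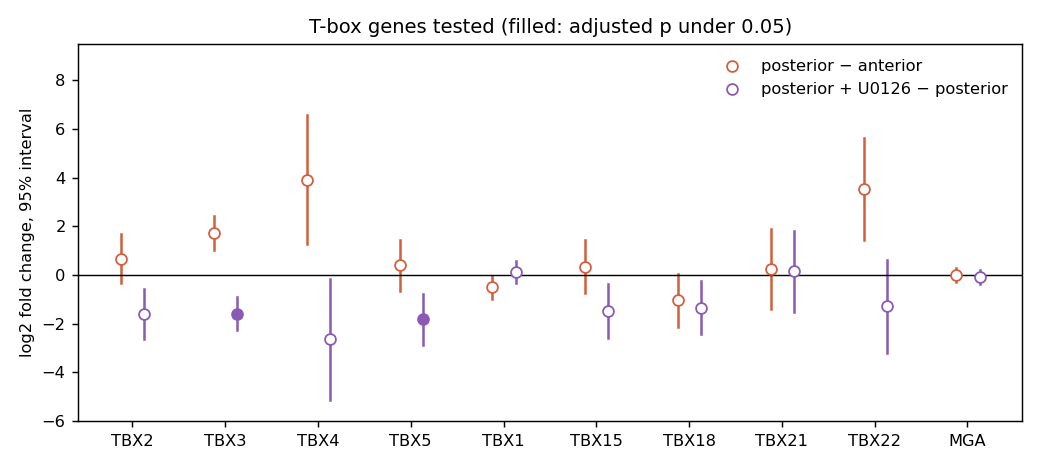
Log2 fold changes of the tested T-box genes between posterior and anterior blastemas and between inhibitor and posterior blastemas by edgeR, with 95% intervals as bars. TBX3 and TBX5 are the T-box genes called with the inhibitor, at −1.59 and −1.83, and the TBX4 intervals are among the widest.

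HAND2 binds DNA as a dimer with the widely transcribed E proteins, encoded by TCF3, TCF4 and TCF12. Between posterior and anterior blastemas 10 of 12 tested partners and relatives were higher, with a median of 0.55, and none was called. With the inhibitor 11 of 12 were lower, with a median of −0.89, and 5 were called lower, against 3.99% of all genes. TCF12 fell by 1.04 ± 0.22 (SE, adjusted p = 0.0173), TCF4 by 0.74 ± 0.16 (SE, adjusted p = 0.0201) and TCF3 by 0.73 ± 0.17 (SE, adjusted p = 0.0236) on the log2 scale by edgeR. The mesodermal helix-loop-helix gene TCF15 fell by 0.98 ± 0.19 (SE, adjusted p = 0.0130), and ZFPM1, a cofactor of GATA factors, by 1.28 ± 0.32 (SE, adjusted p = 0.0280). TCF4, TCF12 and TCF15 lost the call only when posterior replicate 1 was left out, while TCF3 and ZFPM1 lost it in 5 of 17 such fits each. The number of partners called ran from 0, without posterior replicate 1, to 8, without inhibitor replicate 4. Over all genes those fits called 127 and 2381, so the number called changed for all genes as well. The mesenchyme markers given above were lower in the same libraries, and their part was not tested.

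HAND1, the closest relative of HAND2, had a log2 fold change of −0.14 ± 0.84 between posterior and anterior blastemas (SE, 95% interval −1.93 to 1.66, adjusted p = 0.977 by edgeR). It was at 4.99 ± 2.71 CPM in posterior and 5.48 ± 3.89 CPM in anterior blastemas (SD, n = 4 and 5). With the inhibitor it was at 0.658 ± 0.626 CPM (SD, n = 5), below every posterior library, a log2 fold change of −2.92 ± 0.89 (SE, adjusted p = 0.0555 by edgeR). TWIST1, a mesenchymal helix-loop-helix gene that can pair with HAND2, had one of −1.85 ± 0.60 (SE, adjusted p = 0.0670 by edgeR).

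No annotated gene overlaps HAND2, TBX2 or TBX3 in the RefSeq gene table, and the nearest long non-coding RNA gene to each was looked up by position, outside the lists above. LOC138516364, the nearest to HAND2, was at 7.45, 5.01, 3.79 and 1.31 CPM in posterior libraries. It was at 0.0552, 0.235, 0.0190, 0.320 and 0.234 CPM in anterior libraries and at 0.211, 0.253, 0.260, 0.855 and 0 CPM with the inhibitor. The posterior libraries had the same order as for HAND2, and no library of either other group reached them. It fell with the inhibitor by 3.78 ± 1.02 on the log2 scale (SE, adjusted p = 0.0369 by edgeR). Between posterior and anterior blastemas its log2 fold change was 4.67 ± 1.07 (SE, adjusted p = 0.323 by edgeR). The call was lost without posterior replicate 1, 2 or 3 (adjusted p = 0.110, 0.0852 and 0.0629) and without inhibitor replicate 1, 2 or 3 (0.0872, 0.0813 and 0.0790).

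LOC138492200, the nearest to TBX3, was at 24.0, 12.7, 9.52 and 7.46 CPM in posterior libraries and at 3.75, 6.64, 2.34, 4.01 and 4.40 CPM in anterior ones. With the inhibitor it was at 1.45, 2.13, 1.08, 5.28 and 0.617 CPM. Again no anterior or inhibitor library reached the posterior range. It fell with the inhibitor by 2.67 ± 0.57 on the log2 scale (SE, adjusted p = 0.0168 by edgeR), a call lost only without posterior replicate 1 (adjusted p = 0.0665). It rose between uninjured tissue and posterior blastemas by 3.09 ± 0.70 (SE, adjusted p = 0.0392 by edgeR), a call lost in 8 of 17 fits that left out a single library. LOC138488242, the nearest to TBX2, differed from both, with group means of 4.81 to 6.84 CPM and a log2 fold change of −0.00 between posterior and anterior blastemas and −0.03 with the inhibitor. Of the genes on either side of HAND2, FBXO8 had log2 fold changes of 0.11 and −0.01 in these comparisons and SCRG1 had 0.42 ± 0.60 and −0.80 ± 0.61 (SE, adjusted p = 0.886 and 0.461 by edgeR), at group means of 0.331 to 0.578 CPM.

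**Figure D5:**
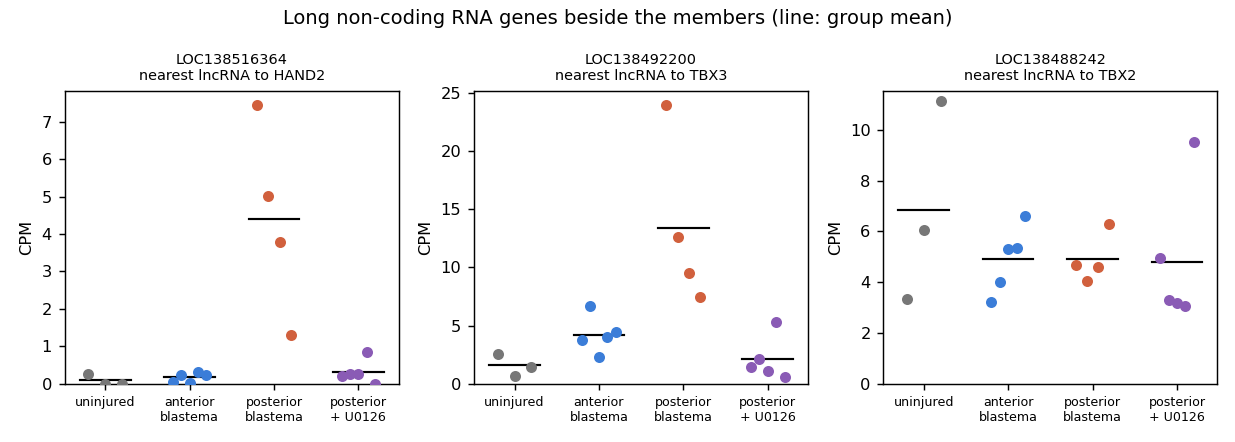
CPM of the long non-coding RNA gene nearest to each factor in the 17 libraries, by group; each point is 1 library. The RNAs near HAND2 and TBX3 are highest in posterior blastemas, and the one near TBX2 has group means of 4.81 to 6.84 CPM.

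The genes whose levels most resembled each factor over the 17 libraries were ranked by Pearson's r of log2(CPM + 0.5), a description over libraries that share groups and tissue makeup. For HAND2 they were HOXA11 (r = 0.977), HOXD13 (0.963), HOXD11 (0.943), FOXD2 (0.937) and FOXD1 (0.926), 3 limb Hox genes and 2 forkhead genes. HOXA11 was at 9.14 ± 4.60 CPM in posterior and 1.57 ± 1.01 CPM in anterior blastemas (SD, n = 4 and 5). For TBX2 they were PRDM16 (0.963), TWIST1 (0.962), MEX3A (0.962), OPTC (0.960) and SCUBE2 (0.959). For TBX3 they included FJX1 (0.931), COL9A3 (0.883), PTCH1 (0.881) and FOXL3 (0.870). FOXD1, FOXD2, COL9A3 and FOXL3 had few reads. Outside posterior blastemas their group means were at most 0.559 CPM, near the 0.5 added before the logarithm. In posterior blastemas they were 1.66, 1.06, 2.10 and 1.03 CPM. No gene stood in more than 1 of these lists. Ranked by Spearman's rho instead, the 5 nearest shared 3 genes with these for HAND2 and 0 for TBX2 and for TBX3.

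With group means subtracted, the lists changed. For HAND2 they held WNT5B (0.972), TRIL, PRRX1 (0.964), ABTB2 and S1PR3, none of the 5 above. For TBX2 they held ATOH8 (0.940), PRRX1 (0.928), PRDM16, SDC3 and VIM, and for TBX3 CHPF2 (0.857), FJX1 (0.853), PHF12, MDN1 and RELL1. PRRX1, a homeobox gene of limb mesenchyme, thus stood among the 5 nearest to both HAND2 and TBX2 within groups. Among themselves, HAND2 and TBX2 had an r of 0.836 over libraries and 0.911 within groups, HAND2 and TBX3 0.837 and 0.561, and TBX2 and TBX3 0.724 and 0.670. High values within groups were common: 0.911 had rank 52 among genes for HAND2 and rank 16 for TBX2. The anterior-list genes GLI3, LHX9 and ALX4 had within-group r of 0.822, 0.759 and 0.472 with HAND2.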

How the data were processed

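Polyadenylated RNA of 17 libraries was measured. The submitters' processing notes name Trimmomatic 0.39 and STAR 2.7.3a. The genome build is not given in the sources used here and coordinates are left out. The authors deposited raw read counts per gene, in 1 unstranded and 2 stranded columns, with 14.2% to 16.4% of reads outside genes, which were left out. Unstranded counts were used (the second-to-first strand ratio was 1.90 to 2.16), so antisense reads cannot be told apart. The second strand held 74.4% of HAND2, 68.9% of TBX2 and 73.0% of TBX3 reads.

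Counts were scaled with TMM (factors 0.862 to 1.08), filtered with filterByExpr and fitted in 1 model of 4 groups with edgeR 4.0.16 (R 4.3.3, robust quasi-likelihood, Benjamini-Hochberg over 19398 genes, threshold 0.05). An SE is the log2 fold change over the square root of F, so it is not independent of p. CPM were computed from the counts. Ratios used a pseudocount of 0.5 and exact permutation tests (a doubled smaller tail), adjusted over 36. Alternatives were RLE and total-count scaling, other filters, each stranded column, only the groups compared, no robust prior, other pseudocounts, a replicate block, DESeq2 1.42.0 and leaving out libraries. Tests were checked on simulated counts. Names and neighbours came from a RefSeq table (UKY_AmexF1_1), in which 67156 of 67180 gene IDs outside tRNA were found; protein and promoter sequences were not analysed here. Replicate pairs differed by a chi-square of 66.3 to 650 per degree of freedom, more than repeated sequencing of 1 library would give. This cannot show that they came from separate animals. Each library was counted as 1 sample. Figures used matplotlib 3.10.9 (Python 3.11.15).

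The 3 members and all gene lists were chosen with earlier results of these data known. Named genes were the 3 members, a set of limb genes, listed genes called in a comparison, and the 5 most alike by r; the long non-coding RNAs, FBXO8, SCRG1 and TNC fall outside that rule. Some results are not reported here.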

Additional observations from a re-analysis of the deposited data

Results flagged for a closer look

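HAND2 in inhibitor replicate 4 was at 12.4 CPM, a sample far from the others of its group, which were at 0.0771 to 3.08 CPM. The gap to the next library was 0.757 of the group's range in CPM, with no logarithm taken. With 9 sets of values examined, each gene in each group of 4 or 5 libraries, chance alone flags about 1 in 20. The sets share libraries, so they are not independent. Fits without both libraries that stood apart kept inhibitor replicate 4. Inhibitor replicate 4 had 51 of the 63 SHH reads of its group, 0.880 CPM of TBX4 against at most 0.169 CPM in the others, and 17.7 CPM of TBX5 against at most 5.35 CPM.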

How the results depend on the processing

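Same-numbered libraries did not deviate together throughout: their correlations ran from −0.308 to 0.391. They were above 0.1 in 3 of 4 pairs between anterior and posterior and in 2 of 4 between posterior and inhibitor. Between uninjured and anterior libraries, whose names share codes, 1 of 3 was above 0.1, at 0.350, −0.220 and −0.127 for replicates 1 to 3. The libraries numbered 1 were positively correlated in every pair of groups, from 0.195 to 0.391. Differently numbered libraries were not compared, so these values cannot settle whether the numbers pair samples. No pairing is stated, and the main fit took none. With the replicate block the TBX3 posterior against uninjured log2 fold change was 1.75 and no longer passed (adjusted p = 0.0676), HAND2 anterior against uninjured was 0.20, reversed in sign, and genes called with the inhibitor numbered 947 against 1576. That TBX3 call was also lost with first-strand counts (1.75) and with only the groups compared (1.80). TBX2 with the inhibitor passed under RLE scaling (−1.61), the stricter filter (−1.59), DESeq2 (−1.61) and without both libraries that stood apart (−1.40). DESeq2 also passed HAND2 and TBX3 posterior against anterior (3.18 and 1.74), HAND2 with the inhibitor (−2.40), and HAND2 and TBX2 posterior against uninjured (3.07 and 1.77). Leaving out both libraries passed TBX2 anterior against uninjured (1.73) and HAND2 and TBX2 posterior against uninjured (4.33 and 2.40). HAND2 anterior against uninjured changed sign there (1.15), with total-count scaling (0.037) and with first-strand counts (0.074). The TBX2 to TBX3 ratio with the inhibitor changed sign with a pseudocount of 1 (0.091) and without both libraries (0.11).

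Leaving out each library in turn gave these log2 ranges. With the inhibitor against posterior, HAND2 ran from −3.70 to −2.07, TBX2 from −1.99 to −1.24, TBX3 from −1.81 to −1.16, the TBX2 to TBX3 ratio from −0.20 to 0.15 and TBX3 relative to mesenchyme from −0.46 to 0.013. Posterior against uninjured, TBX2 ran from 1.41 to 2.39 and TBX3 from 1.37 to 2.02; TBX2 passed without uninjured replicate 1 (adjusted p = 0.0377). TBX2 with the inhibitor passed without that library too (adjusted p = 0.0364). Over all genes that fit called 1935 posterior against uninjured and 2172 with the inhibitor. Anterior against uninjured, HAND2 ran from −0.55 to 1.15 and TBX3 from −0.17 to 0.25. Inhibitor against anterior, HAND2 ran from −0.53 to 1.18. Inhibitor against uninjured, HAND2 ran from −0.63 to 1.93, TBX2 from −0.22 to 0.79 and TBX3 from −0.016 to 0.40. The causes were not tested.

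Total-count scaling put the median log2 fold change of all genes at 0.12 and 0.14 in anterior and posterior against uninjured, and called 440 genes higher and 736 lower with the inhibitor against 802 and 774. Genes called posterior against uninjured numbered 408, against 0 with only those groups, 45 with the block, 1949 by DESeq2 and 3108 without both libraries. With the inhibitor they ran from 127 to 2381 over single libraries left out. Per library, depth gave 3 to 1461 reads of HAND2, 35 to 581 of TBX2 and 251 to 2768 of TBX3.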
